A study of Rattus norvegicus with 16 samples.

Results

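The genes of the mitochondrial respiratory chain were followed in PCCl3 cells, a differentiated rat thyroid follicular cell line, after the mRNA of the transcription factor *Pax8* had been reduced by siRNA. A gene was included when the RefSeq accession of its array probe resolved to a rat symbol that begins with Nduf, Uqcr, Atp5, or Cox and a digit, or to *Sdha* to *Sdhd* or *Cycs*. This gave 55 genes with 64 probes, out of 8899 genes that the reference named on the array and 39143 features in all, a feature being a named gene or an unnamed probe. The reference holds 128 protein-coding genes with such symbols, so the array's named probes cover only part of the chain, and the subunits encoded in mitochondrial DNA are not among them. The 55 genes comprised 13 subunits and 3 assembly factors of complex I, 3 subunits of complex II, 5 of complex III, cytochrome c, 13 subunits and 2 assembly factors of complex IV, and 14 subunits and the inhibitor of ATP synthase.

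RNA of cells transfected with the *Pax8* siRNA (si*Pax8* cells; 10 ng/ml with Lipofectamine, RNA taken 48 hours later) was hybridized in competition with RNA of wild type cells (wt) or of cells given a scrambled siRNA (siScramble). All cells were PCCl3 cells kept in medium with donor calf serum and a hormone mixture that included TSH and insulin. The labels call the wt condition wild type, the methods list cells treated with lipofectamine, and an immunoblot legend of the study calls wt cells not transfected, so that against wt cells an effect of *Pax8* and an effect of transfection cannot be told apart. Each comparison had 4 replicates, which the labels call biological without saying whether they were separate cultures, so p-values measure the spread between these samples. Each replicate was hybridized on a pair of arrays with the dyes exchanged, which gave 16 arrays on 4 slides. Both comparisons share the si*Pax8* condition, with the same replicate numbers, and whether the same RNA was used is not stated, so their values are set side by side and neither is counted as support of the other.

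The respiratory chain lies in the inner mitochondrial membrane. Complex I takes electrons from NADH and complex II takes them from succinate, both pass them through coenzyme Q to complex III, cytochrome c carries them on to complex IV, and complex IV reduces oxygen. Complexes I, III and IV pump protons, and ATP synthase uses the returning protons to make ATP. In thyroid follicular cells this ATP serves, among other things, the sodium pump whose gradient drives iodide uptake.

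Each replicate gave 1 log2 ratio of si*Pax8* to control, the mean of its exchanged dyes, and these were tested by limma with Benjamini-Hochberg adjustment over all 39143 features, and a gene was called at an adjusted p below 0.005. Below 0 means less transcript after the *Pax8* siRNA, as read from the dyes of the labels. The study's text words its probes as lower or higher in the silenced condition. It gives more probes up than down against wt cells, while here more features were called lower (8.22%) than higher (6.84%). Its probes and these features are not the same unit, and the log2 ratios that the authors deposited run the other way, as control over si*Pax8*. Whether the study's counts follow that direction was not tested, nor was the reason for the mismatch. *Pax8*, the target of the siRNA, was below 0, that is lower after the siRNA. It was measured by probe A_43_P12538, with log2 ratios of -0.84, -0.57, -0.59 and -0.26 in replicates 1 to 4 against wt cells, a mean of -0.56 ± 0.24 (SD, n = 4; limma adjusted p = 0.000452) that leaves 67.6% of the wt level. Against siScramble cells its log2 ratios were -0.58, -0.29, -0.12 and -0.01, with a mean of -0.25 ± 0.25 (SD, n = 4; limma adjusted p = 0.142) that did not pass the threshold. The fall against wt cells missed the threshold without replicate 3 (-0.56, limma adjusted p = 0.00512) and on the arrays with si*Pax8* in Cy3 (-0.47, adjusted p = 0.0178). The mean was thus nearer to 0 against siScramble than against wt cells, with like SDs, and the difference itself was not past the threshold (-0.32, limma adjusted p = 0.183). All 11 measured markers of thyroid follicular cells were well above background in si*Pax8* RNA in at least 1 probe on each of the 8 arrays against wt cells. The endothelial markers *Kdr* and *Pecam1* never were on these arrays, nor were *Col3a1*, *Dcn* and *Lum* of fibroblasts, while *Col1a2* of fibroblasts, *Cd68* of leukocytes and *Calca* of C cells were above background on all of them. *Itgam*, the other measured leukocyte marker, was above background on 0 of them, as was *Calcb* of C cells. *Calca* was at -0.10 against wt cells (limma adjusted p = 0.0309). *Cd68* was higher against wt cells (0.30 ± 0.12, SD, n = 4; limma adjusted p = 0.000752), and of the thyroid markers 9 were called lower and 1 higher there, against 2 lower and 0 higher against siScramble cells; their part in the results below was not tested.

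Against wt cells, 6 genes of complex I, 2 of complex III and *Cox4i1* of complex IV were lower, *Sdha* of complex II, *Cox6a1* and *Cox6a2* of complex IV and *Atp5pb* of ATP synthase were higher, and the called levels lay between 77.3% and 121% of the wt level. Of the 55 genes 13 were called, 9 lower and 4 higher, which is 23.6% of them. Over all features 15.1% were called, 8.22% lower and 6.84% higher. Of the 55 members 51 were well above background in both channels of all 16 arrays, which is called detected here. Among the 19170 detected features 29.5% were called, so the members' share lay between that of all features and that of detected ones, and 25.5% of the 51 detected members were called. The 9 lower genes had log2 ratios of -0.37 to -0.17 and the 4 higher genes had ratios of 0.19 to 0.28. A ratio in these bulk samples does not tell fewer cells that carry a transcript from less of it per cell.

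**Figure D1:**
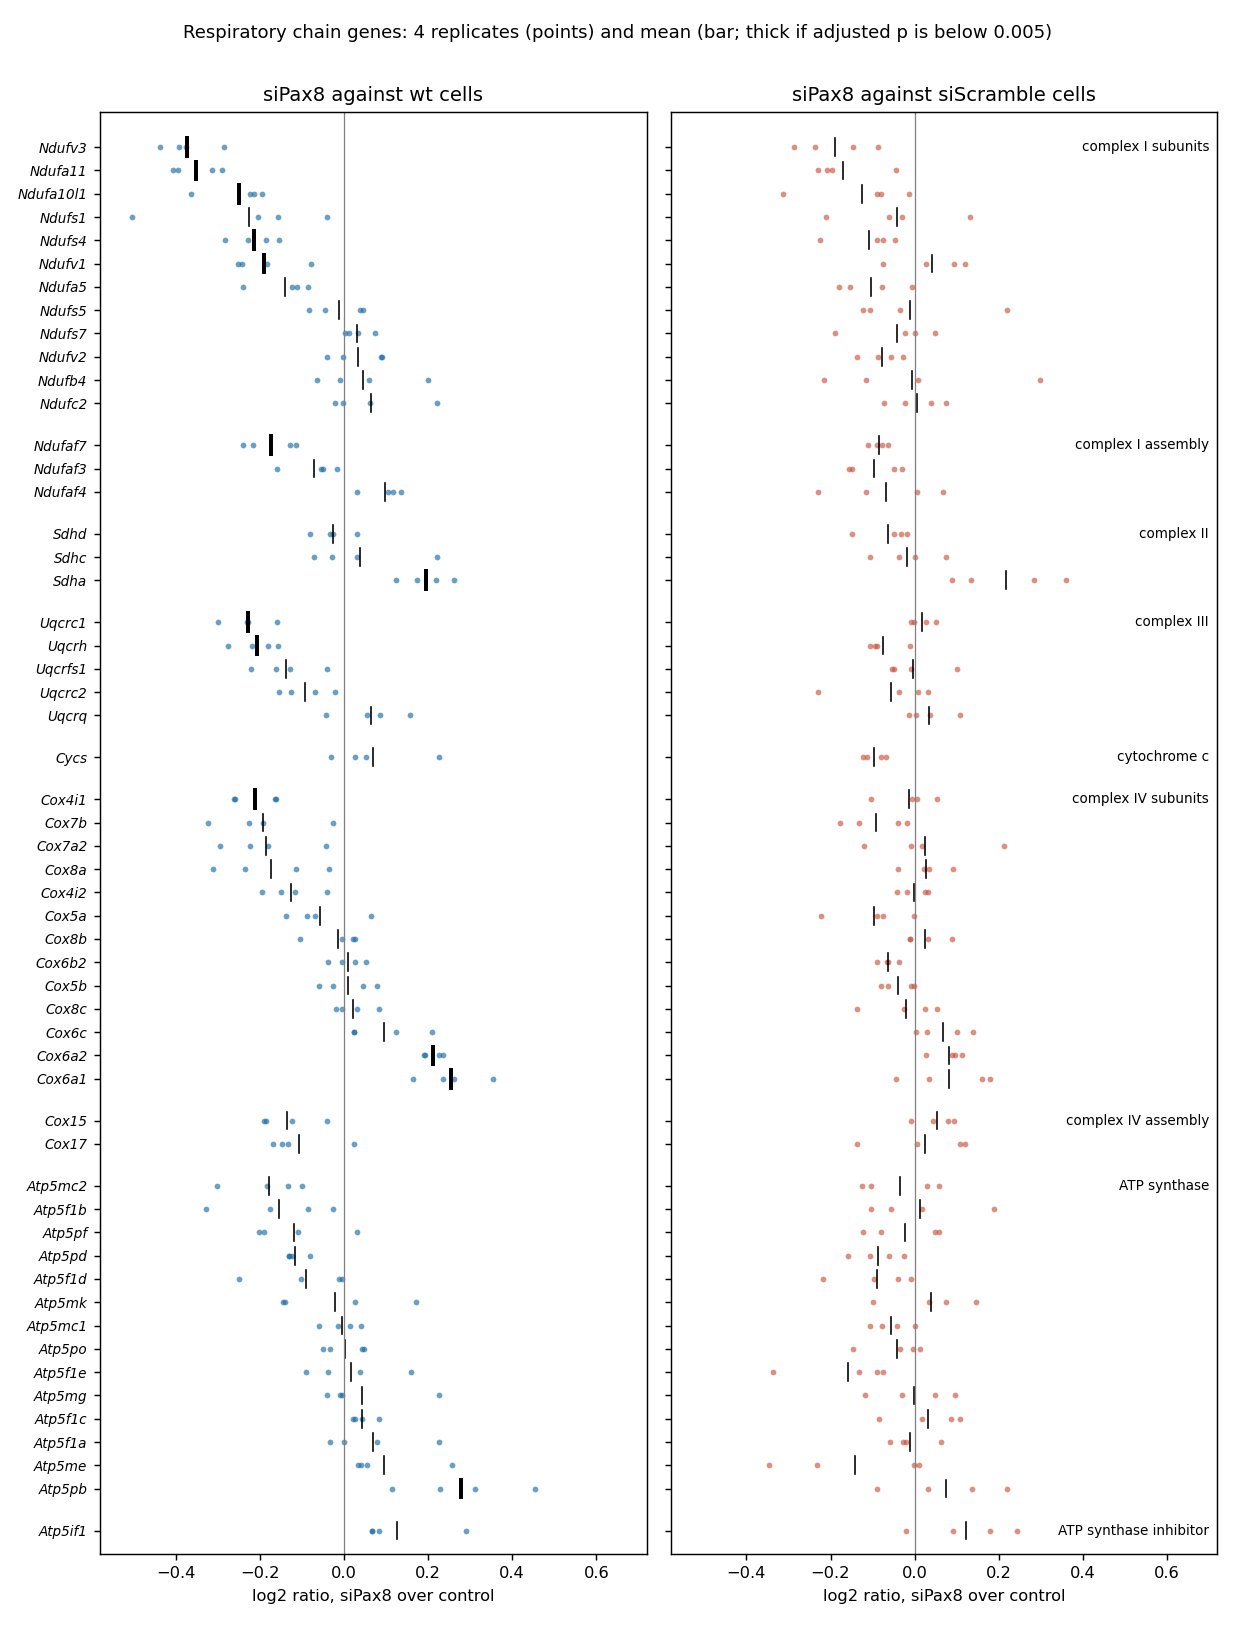
Log2 ratio of si*Pax8* over wt cells (left) and over siScramble cells (right) for the respiratory chain genes reported singly, grouped by complex (labels at the right edge); points are the 4 replicates, each the mean of a dye pair, and bars are their mean, thick where the limma adjusted p was below 0.005. The 13 thick bars lie at -0.37 to -0.17 and at 0.19 to 0.28, all on the left. *Cox6b2*, *Cox8b* and *Cox8c* are drawn although their probes were not well above background.

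Against siScramble cells none of the 55 genes was called by limma, where 2.08% of all features and 4.16% of detected ones were. At an unadjusted p below 0.05, 16 members were lower and 3 higher, that is 29.1% and 5.45% of them, beside 11.8% and 8.51% of all features and 22.4% and 15.5% of the detected ones. The lowest adjusted p belonged to *Ndufv3*, *Ndufa11* and *Sdha*, each with the direction it had against wt cells. Against wt cells 23 members were below 0 in all 4 replicates (41.8%, against 21% of all features and 32.6% of detected ones) and 10 above 0 (18.2%, against 17.6% and 26.7%). Against siScramble cells 18 were below 0 in all 4 replicates (32.7%, against 15.2% and 23.3%) and 3 above (5.45%, against 11.6% and 16%). The median over the members was nevertheless small, with replicate medians of -0.05 to -0.02 against wt cells and -0.05 to 0.00 against siScramble cells, and those over detected features were -0.02 to -0.01 in both. Over the 51 detected members they were -0.07 to -0.03 and -0.06 to -0.01.

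The promoters are shown for 4 of the called genes, since each holds the letters GCGCANGCG of the nuclear respiratory factor NRF1, a regulator of many respiratory chain genes, and since 3 of these genes fell and 1 rose. They are the 250 bases before the annotated start in RefSeq (build GRCr8, 5′ to 3′ on the strand of the gene), with the matches of NRF1 and Sp1 in capitals. *Ndufv3* lies at chr20:9613536-9613785 on the plus strand, with a match of NRF1 from position -39 and matches of GGGCGG, the letters of Sp1, from -119 and, on the other strand, from -54.
Ndufv3: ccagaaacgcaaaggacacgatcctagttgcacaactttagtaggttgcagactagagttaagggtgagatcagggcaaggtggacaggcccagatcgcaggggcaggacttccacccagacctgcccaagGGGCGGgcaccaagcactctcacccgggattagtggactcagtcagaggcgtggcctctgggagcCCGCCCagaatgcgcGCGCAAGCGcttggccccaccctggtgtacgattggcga
Ndufa11: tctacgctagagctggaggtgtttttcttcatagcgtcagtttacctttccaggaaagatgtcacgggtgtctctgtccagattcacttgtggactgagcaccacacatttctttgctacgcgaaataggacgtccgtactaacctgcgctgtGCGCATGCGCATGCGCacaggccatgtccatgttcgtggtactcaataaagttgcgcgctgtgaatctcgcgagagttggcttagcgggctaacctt
Uqcrc1: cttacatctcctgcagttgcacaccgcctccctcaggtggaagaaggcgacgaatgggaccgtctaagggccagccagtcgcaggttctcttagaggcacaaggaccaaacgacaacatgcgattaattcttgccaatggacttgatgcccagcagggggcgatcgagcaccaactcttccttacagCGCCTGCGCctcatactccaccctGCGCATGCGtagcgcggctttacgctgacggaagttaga
Sdha: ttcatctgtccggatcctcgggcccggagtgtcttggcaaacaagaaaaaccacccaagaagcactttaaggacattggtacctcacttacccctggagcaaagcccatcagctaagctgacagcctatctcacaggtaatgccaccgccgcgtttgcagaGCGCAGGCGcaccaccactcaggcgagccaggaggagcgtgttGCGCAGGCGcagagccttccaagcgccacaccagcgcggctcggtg
*Ndufa11* lies at chr9:1637364-1637613 on the plus strand, and its capitals hold 4 overlapping NRF1 matches, 2 on each strand, from position -97. *Uqcrc1* lies at chr8:118467973-118468222 on the plus strand, with NRF1 letters from -63, on the other strand, and from -39. *Sdha* lies at chr1:30764303-30764552 on the plus strand, with NRF1 letters from -89 and -46 and a further match that begins at -1 and runs past the start, which is not shown in capitals.

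Promoters were found for 49 of the 55 genes. Over the 300 bases from 250 before to 50 after the start, and on both strands, NRF1 letters were present in 15 of the 49 (30.6%) beside 5.8% of all 33469 promoters of the table. The letters CCGGAAG of the ETS factors were present in 15 (30.6%) beside 8.75%, AAGATGGCG of YY1 in 4 (8.16%) beside 1.73% and GGGCGG in 21 (42.9%) beside 33.1%. GCGTGAC, the letters searched for Pax proteins, were in 0 of the 49 and in 2% of all promoters. The members' promoters were also richer in G and C, with a median of 57.7% beside 51.7%. NRF1 letters were held by 3 of the 8 genes called lower for which a promoter was listed, and by 1 of the 3 called higher. A match is a description of the sequence and says nothing of binding.

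The subunits of complex I held the largest falls. *Ndufv3*, a small accessory subunit of the flavoprotein part that binds NADH, had log2 ratios of -0.38, -0.39, -0.28 and -0.44 in replicates 1 to 4 against wt cells, a mean of -0.37 ± 0.06 (SD, n = 4; limma adjusted p = 4.41e-05). Against siScramble cells its values were -0.24, -0.09, -0.15 and -0.29, a mean of -0.19 ± 0.09 (SD, n = 4; limma adjusted p = 0.0246). All 8 values were below 0, and the ranges of the comparisons only touched, with 1 value against siScramble cells as low as the highest against wt cells. *Ndufa11*, an accessory subunit of the membrane arm, had values of -0.41, -0.40, -0.29 and -0.31 against wt cells, a mean of -0.35 ± 0.06 (SD, n = 4; limma adjusted p = 5.32e-05), or 78.4% of the wt level. Against siScramble cells it had -0.21, -0.20, -0.05 and -0.23, a mean of -0.17 ± 0.08 (SD, n = 4; limma adjusted p = 0.0316). Its falls against wt cells were thus all larger than those against siScramble cells. These calls against wt cells stood without each replicate in turn and in each dye orientation.

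The result of *Ndufv3* against siScramble cells depended on the model, as its adjusted p was 0.00298 with the replicate block, that is with the 8 arrays as single values and the replicate number as a random block. In that fit it was the 1 member called, and with the slide as a block it and *Sdha* were (limma adjusted p = 0.00169 and 0.00366). The fit with the slide block had no term for the replicate. It took the dye-swapped arrays of a replicate as separate samples, so its p-values do not measure the spread between replicates. *Ndufa10l1*, a rat gene named after *Ndufa10*, an accessory subunit,, was measured by 3 probes with mean log2 ratios of -0.27, -0.25 and -0.23 against wt cells. Their average was -0.36, -0.21, -0.22 and -0.19 in replicates 1 to 4, with a mean of -0.25 ± 0.08 (SD, n = 4; limma adjusted p = 0.000725). The means of the 3 probes lay close together, but A_44_P196569 had an SD of 0.16 and just missed the threshold (limma adjusted p over probes = 0.0051). On the arrays with si*Pax8* in Cy3 alone *Ndufa10l1* was at -0.12 and not called (limma adjusted p = 0.201). *Ndufs4*, an accessory subunit needed for a stable complex, had -0.28, -0.23, -0.19 and -0.15, a mean of -0.21 ± 0.06 (SD, n = 4; limma adjusted p = 0.00093). *Ndufv1*, the core subunit that binds NADH, had -0.25, -0.08, -0.24 and -0.18, a mean of -0.19 ± 0.08 (SD, n = 4; limma adjusted p = 0.00363). The assembly factor *Ndufaf7*, which methylates a core subunit, had -0.13, -0.11, -0.22 and -0.24, a mean of -0.17 ± 0.06 (SD, n = 4; limma adjusted p = 0.00353).

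Each of these values against wt cells was below 0, and with 3 replicates in place of 4 some missed the threshold at a log2 ratio of about the same size. Without replicate 3, *Ndufa10l1* was at -0.26 (adjusted p = 0.00568), *Ndufs4* at -0.22 (0.00662), *Ndufv1* at -0.17 (0.0294) and *Ndufaf7* at -0.16 (0.0284). Without replicate 2, *Ndufs4* was at -0.21 (adjusted p = 0.00777) and *Ndufaf7* at -0.19 (0.00917). Without replicate 4, *Ndufv1* was at -0.19 (adjusted p = 0.0188) and *Ndufaf7* at -0.15 (0.0244), and without replicate 1 *Ndufv1* was at -0.17 (0.00816). Against siScramble cells the means were -0.12 ± 0.13 for *Ndufa10l1*, -0.11 ± 0.08 for *Ndufs4*, 0.04 ± 0.09 for *Ndufv1* and -0.09 ± 0.02 for *Ndufaf7* (SD, n = 4). *Ndufv1* was thus the only one of these 4 with a mean above 0 there.

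Other subunits of complex I were not called. *Ndufs1*, a core subunit which carries iron-sulfur clusters next to the NADH site, had -0.50, -0.04, -0.21 and -0.16 against wt cells, a mean of -0.23 ± 0.20 (SD, n = 4; limma adjusted p = 0.0273), so its mean was larger than that of *Ndufs4* with a spread more than 3 times as wide. *Ndufa5* was at -0.14, and *Ndufs5*, *Ndufs7*, *Ndufv2*, *Ndufb4* and *Ndufc2* lay between -0.01 and 0.06. In all, 9 of the 13 subunits were below 0 against wt cells and 11 against siScramble cells. Of the assembly factors, *Ndufaf3* had a mean of -0.07 ± 0.06 (SD, n = 4). The probes of *Ndufaf4* disagreed, with mean log2 ratios of 0.20 (A_44_P253940, limma adjusted p over probes = 0.0019), 0.12 (A_44_P394011) and -0.03 (A_44_P470528), so that no direction is given for this gene.

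Complex II had 3 measured subunits, of which *Sdha* rose. *Sdha*, the catalytic subunit that oxidizes succinate in both the citric acid cycle and the chain, had log2 ratios of 0.26, 0.22, 0.17 and 0.12 against wt cells, a mean of 0.19 ± 0.06 (SD, n = 4; limma adjusted p = 0.00172), or 114% of the wt level. Against siScramble cells it had 0.36, 0.28, 0.09 and 0.13, a mean of 0.22 ± 0.13 (SD, n = 4; limma adjusted p = 0.0356). It was the member with the highest mean against siScramble cells, and all 8 values were above 0. The difference between its comparisons was -0.02 with a 95% interval of -0.15 to 0.11. The call against wt cells was lost without replicate 2 (0.19, adjusted p = 0.013), without replicate 3 (0.20, adjusted p = 0.0111) and on the arrays with si*Pax8* in Cy3 (0.11, adjusted p = 0.21). The membrane anchors *Sdhc* and *Sdhd* were at 0.04 ± 0.13 and -0.03 ± 0.05 against wt cells (SD, n = 4), with 95% intervals of -0.07 to 0.14 and -0.10 to 0.04.

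In complex III, *Uqcrc1* and *Uqcrh* fell against wt cells and all but *Uqcrq* were below 0. *Uqcrc1*, a core protein of the matrix side, had -0.23, -0.16, -0.30 and -0.23, a mean of -0.23 ± 0.06 (SD, n = 4; limma adjusted p = 0.000644). Against siScramble cells its values were 0.03, -0.00, 0.05 and -0.01, a mean of 0.02 ± 0.03 (SD, n = 4; limma adjusted p = 0.811) with a 95% interval of -0.04 to 0.08. The 2 sets of 4 values, each averaged over the dyes, did not overlap. Against siScramble cells the orientations of *Uqcrc1* lay on both sides of 0, at -0.11 with si*Pax8* in Cy5 and at 0.15 in Cy3. *Uqcrh*, the hinge protein that touches cytochrome c1, had -0.16, -0.27, -0.22 and -0.18 against wt cells, a mean of -0.21 ± 0.05 (SD, n = 4; limma adjusted p = 0.000959), and its mean against siScramble cells was -0.08 ± 0.04 (SD, n = 4). The Rieske iron-sulfur protein *Uqcrfs1* had a mean of -0.14 ± 0.08 (limma adjusted p = 0.0169) and the core protein *Uqcrc2* one of -0.09 ± 0.06 (limma adjusted p = 0.0672) against wt cells (SD, n = 4), neither of them called. *Uqcrq* was well above background in si*Pax8* RNA on only 3 of the 8 arrays against wt cells. With 3 replicates both kept about their size and missed the threshold in some sets: without replicate 3, *Uqcrc1* was at -0.21 (adjusted p = 0.00657) and *Uqcrh* at -0.20 (0.0093), without replicate 4 they were at -0.23 (0.00522) and -0.22 (0.00541), and without replicate 2 *Uqcrh* was at -0.19 (0.00753).

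*Uqcrc1* was the only member with a called difference between the comparisons, where 3.4% of all features were called by limma. The difference, against wt cells minus against siScramble cells, was -0.25 ± 0.04 (SE; limma adjusted p = 0.00236). If the same si*Pax8* RNA was on both sets of arrays, this difference is the log2 ratio of siScramble over wt cells, which were not hybridized together. The size was -0.28 to -0.21 when each replicate was left out, with adjusted p of 0.0104 to 0.03 that no longer passed. Below an unadjusted p of 0.05 there were 22 members, 14 of them lower and 8 higher, or 40% of the members beside 21.8% of all features and 39.5% of detected ones. Next after *Uqcrc1* by adjusted p were *Cox4i1* at -0.20 (adjusted p = 0.0162), *Cox15* at -0.19 (adjusted p = 0.019) and *Ndufv1* at -0.23 (adjusted p = 0.0192), by limma.

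**Figure D2:**
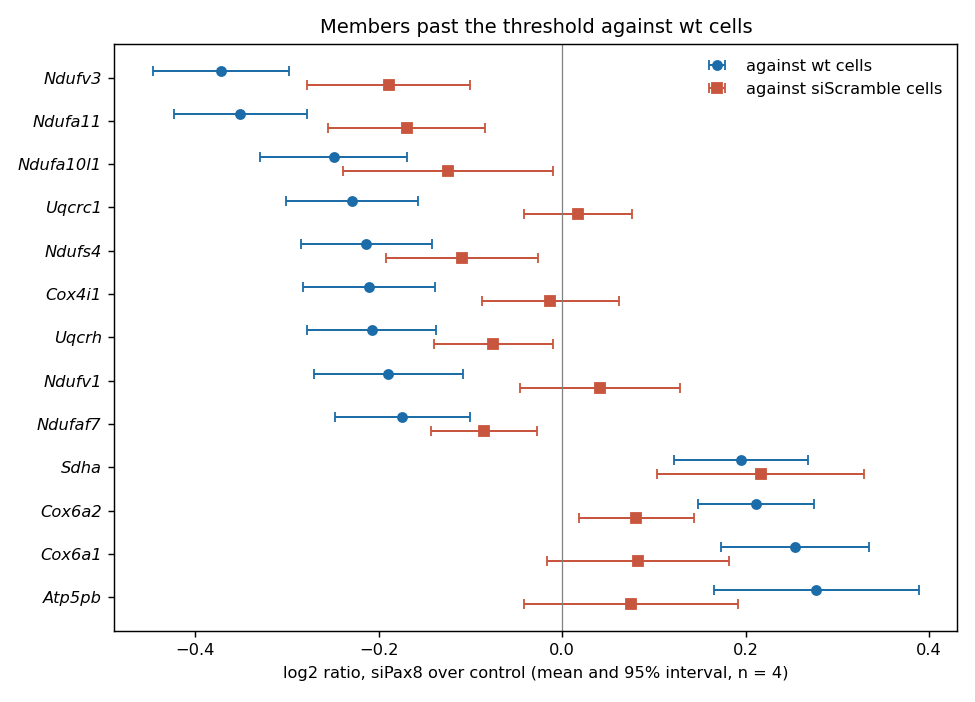
Mean log2 ratio of si*Pax8* over control with its 95% interval from limma (n = 4 replicates) for the 13 members called against wt cells, in order of that ratio; circles are against wt and squares against siScramble cells. *Sdha* lies at 0.19 and 0.22, *Ndufv3* at -0.37 and -0.19, and *Uqcrc1* at -0.23 and 0.02.

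In complex IV 1 subunit fell and 2 rose against wt cells. *Cox4i1*, the widely expressed form of the largest nuclear-encoded subunit, had -0.26, -0.26, -0.16 and -0.16, a mean of -0.21 ± 0.06 (SD, n = 4; limma adjusted p = 0.00101), and against siScramble cells -0.10, 0.01, 0.05 and -0.01, a mean of -0.01 ± 0.07 (SD, n = 4). Its other form, *Cox4i2*, was at -0.13 ± 0.07 against wt cells (SD, n = 4; limma adjusted p = 0.0208), so the 2 forms lay on the same side of 0. *Cox6a1*, the form of subunit VIa found in most tissues, had 0.16, 0.26, 0.35 and 0.23 against wt cells, a mean of 0.25 ± 0.08 (SD, n = 4; limma adjusted p = 0.000667). The heart and muscle form *Cox6a2* had 0.23, 0.19, 0.19 and 0.24, a mean of 0.21 ± 0.02 (SD, n = 4; limma adjusted p = 0.000484) with the smallest spread of all called members. Both forms of subunit VIa were thus above 0 in every replicate against wt cells, and against siScramble cells their means were 0.08 ± 0.11 and 0.08 ± 0.04 (SD, n = 4). Without replicate 2, *Cox4i1* was at -0.19 (adjusted p = 0.00864) and *Cox6a1* at 0.25 (0.0059), and without replicate 3 at -0.23 (0.0054) and 0.22 (0.00549), so both missed the threshold at about the same size, whereas *Cox6a2* passed without each replicate. With si*Pax8* in Cy3 alone, however, *Cox6a2* was at 0.11 against wt cells and not called (limma adjusted p = 0.143), beside 0.32 in Cy5. Against siScramble cells its orientations lay on both sides of 0, at 0.21 in Cy5 and -0.05 in Cy3.

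The other subunits of complex IV did not pass the threshold. Against wt cells, *Cox7b* and *Cox7a2* were both at -0.19 and *Cox8a* at -0.17, no nearer to 0 at 2 decimals than *Ndufaf7*, which was called, but their SDs of 0.11 to 0.12 were wider. *Cox5a* was at -0.06 ± 0.09 (95% interval -0.14 to 0.03) and *Cox5b*, measured by 2 probes, at 0.01 ± 0.06 (95% interval -0.06 to 0.08; SD, n = 4). *Cox6c* was at 0.10. The tissue-restricted forms *Cox6b2*, *Cox8b* and *Cox8c* were not well above background on any array against wt cells, and no ratio is given for them. Among the assembly factors, *Cox15*, an enzyme of haem a synthesis, was at -0.14 ± 0.07 against wt cells (SD, n = 4; limma adjusted p = 0.016) and 0.05 ± 0.05 against siScramble cells, and the copper chaperone *Cox17* was at -0.11 ± 0.09 and 0.02 ± 0.12 (SD, n = 4).

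Cytochrome c, encoded by *Cycs*, was measured by 3 probes with mean log2 ratios of 0.15, 0.04 and 0.02 against wt cells. Their average had values of 0.23, -0.03, 0.03 and 0.05, a mean of 0.07 ± 0.11 (SD, n = 4) and a 95% interval of -0.03 to 0.16. Against siScramble cells it was at -0.12, -0.11, -0.07 and -0.08, a mean of -0.10 ± 0.03 (SD, n = 4; limma adjusted p = 0.0624). Averaged over the dyes, *Cycs* was thus below 0 in every replicate of that comparison and on both sides of 0 in the other. Its orientations against siScramble cells disagreed in sign, at -0.23 with si*Pax8* in Cy5 and at 0.04 in Cy3.

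Of the 14 subunits of ATP synthase only *Atp5pb* was called. *Atp5pb*, the b subunit of the peripheral stalk, had log2 ratios of 0.45, 0.31, 0.23 and 0.12 against wt cells, a mean of 0.28 ± 0.14 (SD, n = 4; limma adjusted p = 0.00269) that was the highest of all members and had the widest spread of those called. Against siScramble cells it had 0.22, 0.14, 0.03 and -0.09, a mean of 0.08 ± 0.13 (SD, n = 4; limma adjusted p = 0.506). Its call was lost without replicate 2 (0.27, adjusted p = 0.0199), without replicate 3 (0.29, adjusted p = 0.0137), and with the replicate block (adjusted p = 0.0108). In the catalytic core, *Atp5f1a* (alpha) was at 0.07 ± 0.12, *Atp5f1b* (beta) at -0.15 ± 0.13 and *Atp5f1c* (gamma) at 0.04 ± 0.03 against wt cells (SD, n = 4), with limma adjusted p of 0.343, 0.0393 and 0.363. *Atp5po*, the stalk subunit known as OSCP, was at 0.00 ± 0.05 with a 95% interval of -0.07 to 0.07.

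*Atp5mc1* and *Atp5mc2* encode the same c subunit of the rotating ring. *Atp5mc1* was at -0.00 ± 0.04 against wt cells (SD, n = 4; 95% interval -0.07 to 0.06). *Atp5mc2* was at -0.18 ± 0.09 (SD, n = 4; limma adjusted p = 0.0065), just outside the threshold, and its probes disagreed: A_42_P841860 was at -0.27 (limma adjusted p over probes = 0.0013) and A_44_P184527 at -0.09 (0.1). Of the other subunits, *Atp5pd* at -0.12 ± 0.02 (limma adjusted p = 0.013) had the lowest spread in the complex, and *Atp5me*, *Atp5f1e*, *Atp5mg* and *Atp5mk* had SDs of 0.11 to 0.15. *Atp5if1*, which inhibits ATP hydrolysis by the enzyme, was at 0.13 ± 0.11 against wt and 0.12 ± 0.11 against siScramble cells (SD, n = 4; limma adjusted p = 0.0548 and 0.166). Set side by side, 5 of 13 subunits of complex I, 0 of 3 of complex II, 2 of 5 of complex III, 1 of 13 of complex IV and 0 of 14 of ATP synthase were called lower against wt cells, beside 8.22% of all features and 16.2% of detected ones. Differences between the complexes were not tested.

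**Figure D3:**
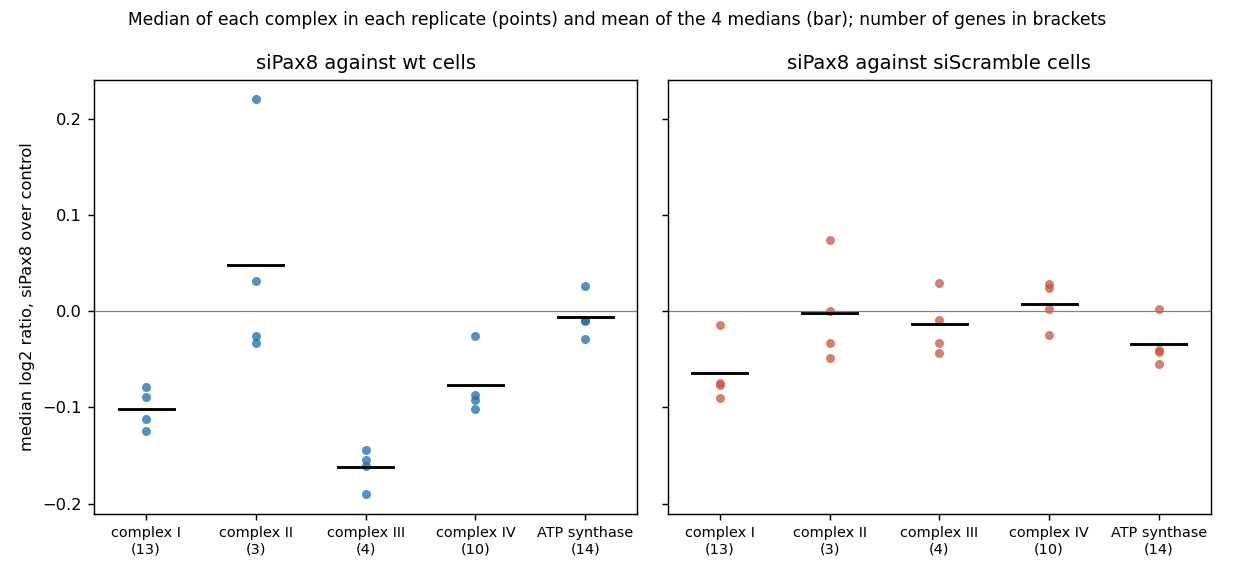
Median log2 ratio over the detected subunits of each complex in each replicate (points) and the mean of these 4 medians (bar), against wt cells (left) and siScramble cells (right); brackets give the number of genes. Against wt cells the replicate medians ran from -0.12 to -0.08 for complex I, from -0.19 to -0.14 for complex III and from -0.03 to 0.03 for ATP synthase.

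Over the detected subunits, the replicate medians placed complex I below 0 in both comparisons, at -0.12 to -0.08 with wt cells as control and at -0.09 to -0.01 with siScramble cells. Those of the 4 detected genes of complex III ran from -0.19 to -0.14 against wt cells and from -0.04 to 0.03 against siScramble cells. ATP synthase spanned 0 in both, with -0.03 to 0.03 and -0.05 to 0.00. The 10 detected subunits of complex IV lay at -0.10 to -0.03 against wt cells and at -0.02 to 0.03 against siScramble cells. With the 3 subunits near background added, complex IV lay at -0.09 to -0.01 against wt cells, and with *Uqcrq* added complex III lay at -0.16 to -0.07. This restriction to detected genes was chosen after the values were seen.

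For many members the dye orientations lay further apart than the mean log2 ratio lay from 0. Across the 55 genes, the mean of the 4 arrays with si*Pax8* in Cy5 minus that of the 4 arrays with si*Pax8* in Cy3 ran from -0.47 to 0.41 against wt cells and from -0.54 to 0.45 against siScramble cells, with median sizes of 0.14 and 0.15. This gap was larger than the size of the mean log2 ratio itself in 36 and 44 of the 55 genes. The gap spans both orientations, so the shift of either from the mean is smaller than the gap. No such count was made over all features. *Atp5pb* against wt cells was at 0.06 with si*Pax8* in Cy5 and at 0.50 with si*Pax8* in Cy3, and against siScramble cells at -0.19 and 0.34. *Cox6a1* was at 0.07 and 0.44 against wt cells, and *Uqcrc1* at -0.36 and -0.10. *Ndufv3* and *Ndufa11*, the largest falls, differed less, with -0.39 and -0.36 and with -0.37 and -0.33. The average over the pair of arrays cancels an equal and opposite dye effect, and every called member had the same sign in both orientations against wt cells. Single orientations still changed the calls: with si*Pax8* in Cy5 alone 9 of the 13 called members stayed called, and with si*Pax8* in Cy3 alone 5 did.

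**Figure D4:**
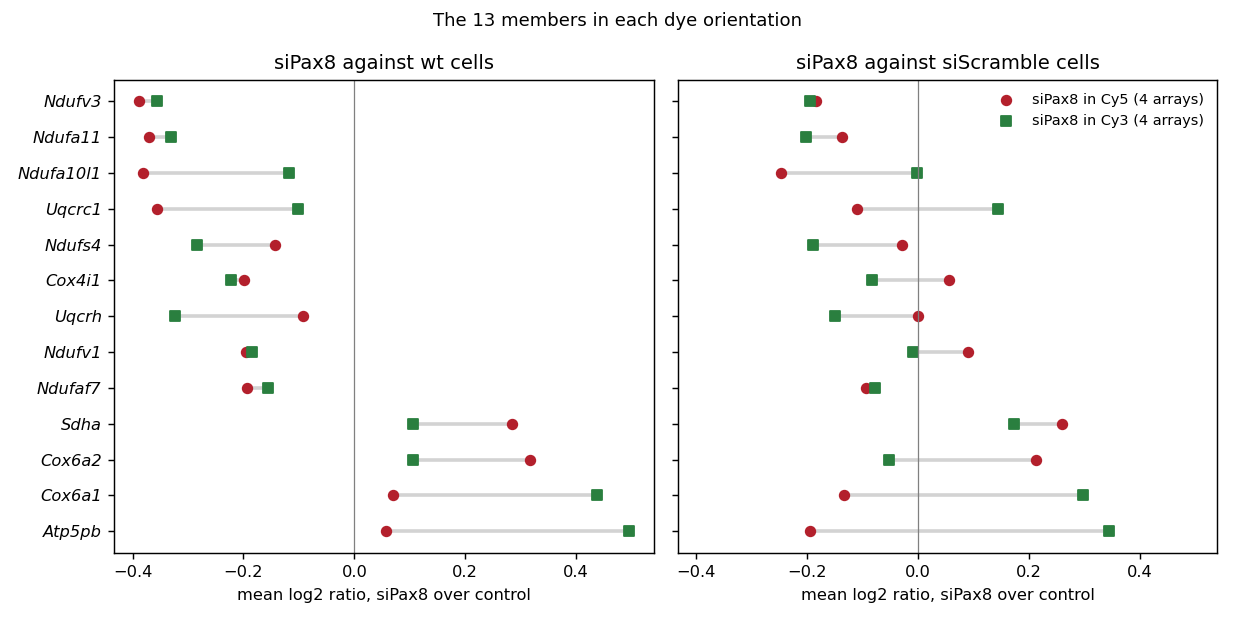
Mean log2 ratio of the 13 members called against wt cells over the 4 arrays with si*Pax8* in Cy5 (circles) and the 4 arrays with si*Pax8* in Cy3 (squares), against wt cells (left) and siScramble cells (right); lines join the orientations of a gene. Against siScramble cells *Atp5pb* lies at -0.19 and 0.34, on both sides of 0, whereas *Ndufv3* lies at -0.18 and -0.20.

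Of the 13 called members, 12 stayed called without replicate 1, 6 without replicate 2, 3 without replicate 3 and 9 without replicate 4. Over all features the calls were 6484, 3856, 3287 and 3776 in these fits, against 5897 with all 4 replicates. The 3 that stood without replicate 3 were *Ndufv3*, *Ndufa11* and *Cox6a2*, and these also stood without each of the others. With the intensities as processed by Agilent's software none of the 13 passed, with adjusted p of 0.00672 to 0.0686, although their directions were the same.

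The genes around the chain were taken from lists. Their counts stand beside the 15.1% of all features and the 29.5% of detected ones called against wt cells. Most of the measured genes of each list were detected, so the share of detected features is the nearer one. Of 14 measured genes from other respiratory chain and assembly factor symbols 1 was called against wt cells, the complex IV assembly factor *Surf1* at 0.24 ± 0.08 (SD, n = 4; limma adjusted p = 0.000973). Among 18 genes of the citric acid cycle and pyruvate dehydrogenase 1 was called higher and 2 lower: *Dlst* at 0.33, and *Fh* and *Ogdh*, both at -0.17. None of the genes of these lists was called against siScramble cells. The mitochondrial ribosomal proteins, which make the subunits encoded in mitochondrial DNA, had 5 of 24 called lower and 0 higher against wt cells, *Mrpl16* the furthest at -0.35 ± 0.08 (SD, n = 4; limma adjusted p = 0.000115). Their median was -0.07 against wt and -0.09 against siScramble cells. Against siScramble cells 0 were called by limma, and 11 (45.8%) had an unadjusted p below 0.05, all lower. At that p 11.8% of all features and 22.4% of detected ones were lower there. Of 15 genes of coenzyme Q and haem synthesis, *Coq8b* at -0.30 and *Coq7* at -0.23 were called lower against wt cells and 0 against siScramble cells.

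Of 16 measured regulators of mitochondrial genes, 5 were called higher and 1 lower against wt cells, and 9 lay above 0 with a median of 0.03. *Nfe2l2*, a regulator of the oxidative stress response, was at 0.66 ± 0.13 (SD, n = 4; limma adjusted p = 1.31e-05) and the transcription factor *Yy1* at 0.53 ± 0.04 (SD, n = 4; limma adjusted p = 3.2e-06). The coactivators *Ppargc1a* and *Ppargc1b*, known for promoting mitochondrial biogenesis, were at 0.28 ± 0.16 and 0.29 ± 0.14 (SD, n = 4; limma adjusted p = 0.00413 and 0.00233), *Mterf1* was at 0.21 and *Mterf4* at -0.18. None of the 16 was called against siScramble cells. In glycolysis, 4 of 18 genes were called higher and 3 lower against wt cells, among them the glucose transporter *Slc2a1* at 0.50 ± 0.14, *Tpi1* at 0.30 ± 0.05 and *Hk1* at -0.27 ± 0.11 (SD, n = 4). *Slc2a1* was also called against siScramble cells, at 0.34 ± 0.09 (SD, n = 4; limma adjusted p = 0.00283).

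Of 14 carriers and pores of the mitochondrial membranes, 1 was called higher and 1 lower in each comparison. *Ckmt1*, the mitochondrial creatine kinase, was at 0.67, 0.76, 0.74 and 0.61 against wt cells, a mean of 0.70 ± 0.07 (SD, n = 4; limma adjusted p = 1.37e-06), and at 0.51 ± 0.04 against siScramble cells (SD, n = 4; limma adjusted p = 0.000181). The dicarboxylate carrier *Slc25a10* was at -0.40 ± 0.07 and -0.21 ± 0.03 (SD, n = 4; limma adjusted p = 3.01e-05 and 0.00435). Both genes thus passed the threshold against both controls, which no member of the chain did, and both lay further from 0 against wt cells than any of the 55.

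**Figure D5:**
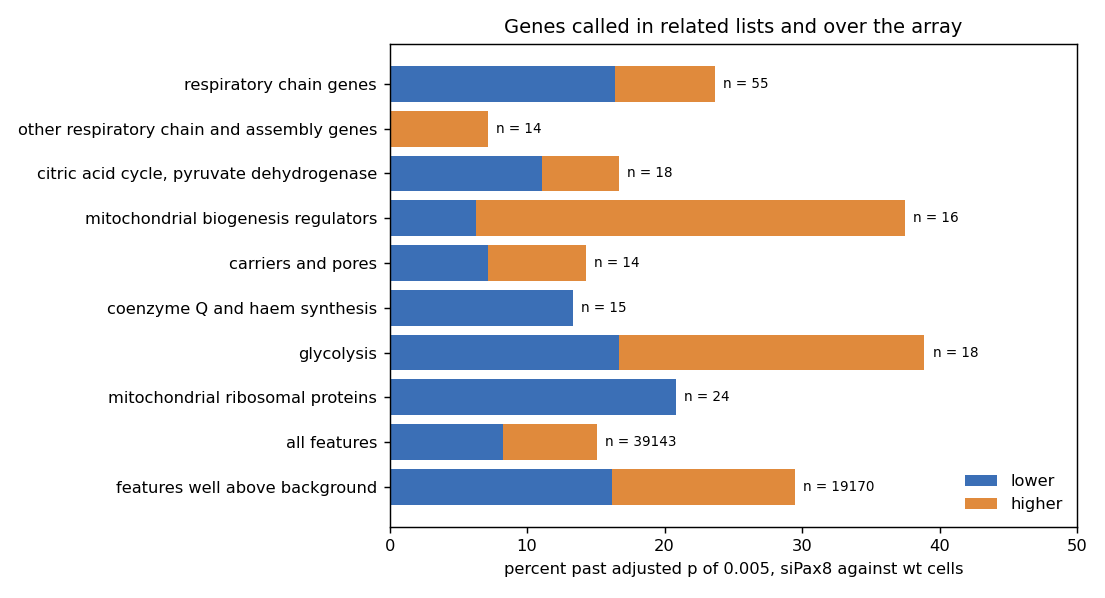
Percent of the measured genes of each list called lower (left part of the bar) and higher (right part) in si*Pax8* against wt cells at a limma adjusted p below 0.005, with the number of genes measured. The respiratory chain genes stand at 23.6%, all features at 15.1% and features well above background at 29.5%.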

How the data were processed

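RNA of si*Pax8* PCCl3 cells was hybridized against that of wt or siScramble cells on 16 arrays of 2 colours. The deposited scanner files hold mean spot and local background intensities per spot, made with Agilent Feature Extraction 10.1.1.1 per the file headers. The methods name another version. A deposited table holds log2 ratios that the authors normalized by loess within and quantile between arrays; its scale and background correction are not stated, its column medians lie at -0.0001 to 0.0068, and it correlates at -0.999 to -0.993 with si*Pax8* over control, so it was turned.

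Intensities were corrected by normexp (offset 50), normalized by loess (control and outlier spots at weight 0) and quantile, and turned to log2(si*Pax8*/control) by the dyes of the labels. Outlier spots were left out (112 to 215 per array, 0 of a member). Spots were averaged to probes and probes to symbols through RefSeq accessions (GRCr8 table), with unnamed probes kept singly. The dye-swapped arrays of a replicate were averaged and 4 values per feature were tested with limma 3.58.1 (lmFit, eBayes) in R 4.3.3, with Benjamini-Hochberg adjustment over 39143 features and a threshold of 0.005 as in the methods. The difference between comparisons was fitted on 8 values. The script was tested on simulated data. Between 52.0% and 60.8% of spots per array were well above background, and the number of arrays limits the precision. Groups came from the labels.

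Replicate numbers paired the arrays of a dye swap, whose deviations from the mean correlated at 0.12 to 0.58. For replicate 2 against wt cells the correlation of 0.12 was below its highest with another number, 0.20, so the values do not bear out its pairing. Across comparisons the same numbers correlated at 0.04 to 0.57. Replicates 2 and 3 there had 0.18 and 0.04, below their highest with another number, 0.41. A member that is not reported here singly is counted in the totals. Named were all called members, core subunits, isoform sets, *Pax8* and called genes of the lists. *Cox7b*, *Cox6c*, *Cox15*, *Cox17*, *Ndufa5*, *Ndufs5*, *Ndufs7*, *Ndufv2*, *Ndufb4*, *Ndufc2*, *Ndufaf3*, *Ndufaf4*, *Uqcrq*, *Atp5f1c*, *Atp5pd*, *Atp5me*, *Atp5f1e*, *Atp5mg*, *Atp5mk* and *Atp5if1* were named after their values were seen. The members and lists were chosen with earlier results of these data known. Alternatives changed the background correction, normalization, source, filter, unit, block, dye, slide, replicates and threshold. The files' genome build has no annotation here, so coordinates are given only for promoters, in GRCr8. Figures were drawn with matplotlib 3.10.9 in Python 3.11.15.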

Additional observations from a re-analysis of the deposited data

Results flagged for a closer look

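In 6 of the 110 sets of 4 replicate values (55 genes, 2 comparisons), 1 replicate lay far from the other 3 by Dixon's test, where chance gives about 1 in 20. Against wt cells, replicate 1 was high for *Atp5if1* (0.29), *Atp5me* (0.26) and *Atp5mg* (0.22) and low for *Ndufa10l1* (-0.36), and replicate 2 was the least negative for *Atp5pd* (-0.081). Against siScramble cells, replicate 1 was the least negative for *Uqcrh* (-0.011). Of the called members, *Ndufa10l1* kept its call without replicate 1, and *Uqcrh* stood out only in the comparison in which it was not called. Over all 55 genes, replicate 1 was the farthest from the mean of the 4 against wt cells in 27 (49.1%), beside 43.5% of the features well above background. The cause was not tested.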

How the results depend on the processing

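All 13 members called against wt cells had the same direction under every alternative, and calls depended on the setting. Fits that changed only the block, unit, dye term, filter or threshold kept the ratios and could not change a direction. Leaving out 1 replicate could not either, since the replicate values of each of the 13 shared a sign. A change of background correction, normalization, source or dye orientation could have. Instead of 13, the number called was 0 with Agilent's processed intensities (1543 features called in all, against 5897), 21 (3 higher, 18 lower) with si*Pax8* in Cy5 alone, 5 (2 higher, 3 lower) with si*Pax8* in Cy3 alone, 25 (5 higher, 20 lower) at an adjusted p below 0.05, and 3 to 15 without 1 replicate. Against siScramble cells, instead of 0, it was 1 with a dye term (*Ndufv3*), 2 with the slide as a block (*Ndufv3*, *Sdha*), 7 with si*Pax8* in Cy3 alone, 3 at an adjusted p below 0.05 and 0 without each replicate (limma). The fits with a dye term or the slide block had no term for the replicate. They took the dye-swapped arrays of a replicate as separate samples. Of all features, the calls against siScramble cells were 29 with Agilent's intensities, 2467 with a dye term, 2323 with the slide block, 186 in Cy5 alone and 3292 in Cy3 alone, against 813. At an adjusted p below 0.05 they were 3465. Against wt cells 7436 features were called in Cy5 alone, 3284 in Cy3 alone and 10121 at an adjusted p below 0.05, against 5897. Without 1 replicate 3287 to 6484 features were called against wt cells. With the replicate block, which pairs the arrays by replicate number, 14 members (3 higher, 11 lower) were called against wt cells, 1 against siScramble cells and 1 in the difference. The features called with this block were 6357 against wt cells, 1617 against siScramble cells and 1815 in the difference.

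For the difference, instead of 1 called member, there were 0 without background correction, with Agilent's intensities, in each dye orientation alone and without each replicate (0 to 0), 4 with a dye term and 7 at an adjusted p below 0.05. Of all features, 3007 were called with a dye term and 4007 at an adjusted p below 0.05, against 1331. The median of the members against wt cells, -0.027, was -0.058 without dim probes, -0.082 with si*Pax8* in Cy5 alone, 0.00041 with si*Pax8* in Cy3 alone and -0.046 to -0.025 without 1 replicate, and that against siScramble cells, -0.021, was -0.037 to -0.015 without 1 replicate, -0.0063 with Agilent's intensities, -0.011 with loess alone, -0.014 in Cy3 alone, -0.041 in Cy5 alone and -0.042 with the deposited table. *Pax8* against wt cells was -0.58 with Agilent's intensities (limma adjusted p = 0.0136), -0.47 in Cy3 alone (0.0178) and -0.66 to -0.47 without 1 replicate, and against siScramble cells -0.33 to -0.14. With si*Pax8* in Cy3 alone, *Atp5f1b* against siScramble cells was -0.21 (limma adjusted p = 0.00387) in place of 0.01, and *Ndufb4* 0.23 (0.00328) in place of -0.01. The causes were not tested. Loess followed by Aquantile gave the same ratios as loess alone.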
